A study of Mus musculus with 9 samples.

Results

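Elane, Prtn3, Ctsg, Mpo and Ms4a3 are 5 of the 14940 genes in a table of RNA levels of sorted mouse bone marrow cells. They were taken by symbol as the azurophil granule genes of granulocyte-monocyte progenitors, and all 5 passed the filter on low values that left 13018 genes for testing. RNA came from LSK cells, the lineage-negative, Sca1-positive, cKit-positive fraction that holds blood stem cells and multipotent progenitors, sorted from 9 C57BL/6 mice with 3 mice in each group. The first group was naive. The second group, called EAE here, was sampled 3 days after immunization against a myelin oligodendrocyte glycoprotein peptide in complete Freund's adjuvant, which is how experimental autoimmune encephalomyelitis is induced. The third group was immunized likewise and received SR59230A, an antagonist of the β3-adrenergic receptor, over the same 3 days. All 9 mice are of 1 strain with no genetic change named, and the labels give no ages. No group received adjuvant without the peptide, so their effects cannot be told apart, and the labels name no vehicle for the control of SR59230A.

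Azurophil granules are the first granules a neutrophil precursor makes, at the promyelocyte stage, and their proteins are stored for later release into phagosomes. Elane encodes neutrophil elastase, Prtn3 proteinase 3 and Ctsg cathepsin G, 3 related serine proteases of these granules. Mpo encodes myeloperoxidase, the haem enzyme that makes hypochlorous acid. Ms4a3 encodes a four-transmembrane protein of the MS4A family and is a marker of granulocyte-monocyte progenitors, not a granule content protein, so the label fits 4 of the 5 genes by content and the fifth by cell type. Granulocyte-monocyte progenitors transcribe these genes strongly and lie outside the LSK gate because they lack Sca1, but transcription of granule genes is already found in earlier, myeloid-biased progenitors. In bulk RNA, more cells of such a type and more RNA per cell cannot be told apart.

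The sequences before the 5 start sites are shown because the genes moved together in the comparisons with naive mice. Each is the 250 bases before the RefSeq start (assembly GRCm38.p6), written 5′ to 3′ on the gene's strand. The Elane window is chr10:79886062-79886311 (plus strand), and the Prtn3 window is chr10:79879417-79879666 (plus strand), in the same gene cluster. The Ctsg window is chr14:56102575-56102824 (minus strand), the Mpo window chr11:87793534-87793783 (plus strand) and the Ms4a3 window chr19:11640852-11641101 (minus strand). Capitals mark matches, on either strand, to 5 short motifs: GAGGAAG (the ETS type bound by PU.1), AACGG (MYB), TTNNGNAA (C/EBP), TGTGGT (RUNX) and TATAA (TATA box). The motifs were chosen after the sequences were seen, and no 2 matches overlapped in these windows.
Elane: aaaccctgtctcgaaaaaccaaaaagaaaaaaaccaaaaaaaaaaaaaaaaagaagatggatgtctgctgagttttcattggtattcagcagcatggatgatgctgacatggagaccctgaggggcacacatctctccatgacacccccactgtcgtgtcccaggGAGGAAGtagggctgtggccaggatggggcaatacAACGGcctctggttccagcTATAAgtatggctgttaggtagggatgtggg
Prtn3: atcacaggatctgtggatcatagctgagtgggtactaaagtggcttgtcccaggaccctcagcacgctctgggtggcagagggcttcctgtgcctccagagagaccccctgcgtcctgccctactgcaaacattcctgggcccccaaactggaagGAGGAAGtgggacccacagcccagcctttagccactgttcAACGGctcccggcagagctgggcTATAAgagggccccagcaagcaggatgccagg
Ctsg: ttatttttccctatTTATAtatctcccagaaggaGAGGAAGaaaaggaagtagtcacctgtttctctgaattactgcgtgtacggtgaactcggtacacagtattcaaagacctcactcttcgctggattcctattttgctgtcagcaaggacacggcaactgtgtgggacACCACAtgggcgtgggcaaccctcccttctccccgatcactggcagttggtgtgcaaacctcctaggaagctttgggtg
Mpo: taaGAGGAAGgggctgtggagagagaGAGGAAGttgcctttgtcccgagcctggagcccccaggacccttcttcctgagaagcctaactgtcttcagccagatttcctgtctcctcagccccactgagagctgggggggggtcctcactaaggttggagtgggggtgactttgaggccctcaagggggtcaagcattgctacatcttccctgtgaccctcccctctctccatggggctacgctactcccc
Ms4a3: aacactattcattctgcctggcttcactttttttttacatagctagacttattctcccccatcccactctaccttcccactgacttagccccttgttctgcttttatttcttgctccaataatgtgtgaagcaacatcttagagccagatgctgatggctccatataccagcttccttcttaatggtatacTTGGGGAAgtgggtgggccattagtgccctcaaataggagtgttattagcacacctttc

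Elane and Prtn3 carried the same 3 matches in the same order. In Elane, GAGGAAG lay 85 to 79 bases before the start, AACGG 50 to 46 bases and TATAA 31 to 27 bases before it. In Prtn3 the same letters lay 95 to 89, 55 to 51 and 32 to 28 bases before the start. This order on the gene's strand occurred in 3 of 32851 windows of this length (0.00913%), and the third was Gm30193. The order counted was that of the Elane and Prtn3 windows, so both match by definition and the share is only a description. GAGGAAG was found in 4 of 5 windows, among them Ctsg at 216 to 210 bases and Mpo at 247 to 241 and 224 to 218 bases, against 10.6% of all windows. AACGG was found in 2 of 5 against 14.5%, TATAA in 3 of 5 against 22.8%, TGTGGT in Ctsg against 14% and TTNNGNAA in Ms4a3 against 36.8%. The TATAA match in Ctsg was on the opposite strand, 236 to 232 bases before the start, unlike those of Elane and Prtn3. Since the motifs were chosen after the windows were read, these counts beside the shares are also only a description. A match describes letters in the window and is no evidence of binding.

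The deposited values are whole numbers but not read counts, and sequencing depth is unknown. Levels are given below as scaled values, the deposited value divided by a factor for each library (0.9005 to 1.107), and they serve to compare libraries within a gene and not genes with each other. The table totals 8641740 to 10388000 per library. Libraries are numbered 1 to 3 within each group, and the numbers pair nothing. Of the markers of the sort, Kit was at 6547 to 7235 in naive, 4846 to 5286 in EAE and 4949 to 5158 in treated libraries. Ly6a, which encodes Sca1, went the other way, at 1412 to 1741, 1881 to 2379 and 2339 to 2539 in the same order. The summed value of 10 genes of the lineage panel was 805 to 1213 in naive, 1561 to 1733 in EAE and 1399 to 1972 in treated libraries, of which Itgam alone held 560 to 789, 1227 to 1406 and 1069 to 1576. The deposited values have no row under the symbols Cd3e, Cd3d, Cd79a and Hbb-bt, so these could not be analysed. Cd8a was at 0 in 2 EAE libraries and at most 8.14 in any library, and Ms4a1 was at most 13.3.

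RNA of all 5 genes was higher in every immunized mouse than in any naive mouse. Elane was at 30.4, 66.3 and 33.8 in the naive libraries, 985, 1734 and 1156 in EAE, and 1257, 1051 and 1259 in the treated libraries. The means were 43.5 ± 19.8, 1292 ± 393 and 1189 ± 120 (SD, n = 3 each). The lowest EAE library lay 14.9 times above the highest naive library, while EAE and treated libraries overlapped. Neutrophil elastase is the protease that degrades elastin and bacterial proteins.

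Prtn3 was at 1098, 1368 and 1348 in naive, 6162, 7268 and 5239 in EAE, and 5814, 5661 and 5840 in treated libraries. The means were 1271 ± 151, 6223 ± 1016 and 5772 ± 96.8 (SD, n = 3 each). The lowest EAE library was 3.83 times the highest naive one, and all 3 treated libraries fell inside the EAE range.

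Ctsg was at 470, 740 and 568 in naive, 6105, 9054 and 5316 in EAE, and 5607, 5140 and 5654 in treated libraries. The means were 593 ± 137, 6825 ± 1970 and 5467 ± 284 (SD, n = 3 each). The lowest EAE library was 7.18 times the highest naive one. The treated libraries lay close together at the lower end of the EAE range, and the lowest of them was under all EAE libraries.

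Mpo was at 171, 222 and 245 in naive, 1011, 1179 and 614 in EAE, and 597, 748 and 787 in treated libraries. The means were 213 ± 37.7, 935 ± 290 and 711 ± 100.5 (SD, n = 3 each). Its groups were the closest of the 5, with the lowest EAE library at 2.50 times the highest naive one. EAE library 3 was the lowest and sat among the treated libraries.

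Ms4a3 was at 15.2, 20.8 and 19.7 in naive, 614, 928 and 745 in EAE, and 663, 510 and 637 in treated libraries. The means were 18.6 ± 2.99, 762 ± 158 and 603 ± 82.3 (SD, n = 3 each). The lowest EAE library lay 29.5 times above the highest naive one, the widest gap of the 5 genes. The lowest treated library was under all EAE libraries and the other treated libraries were inside the EAE range.

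**Figure D1:**
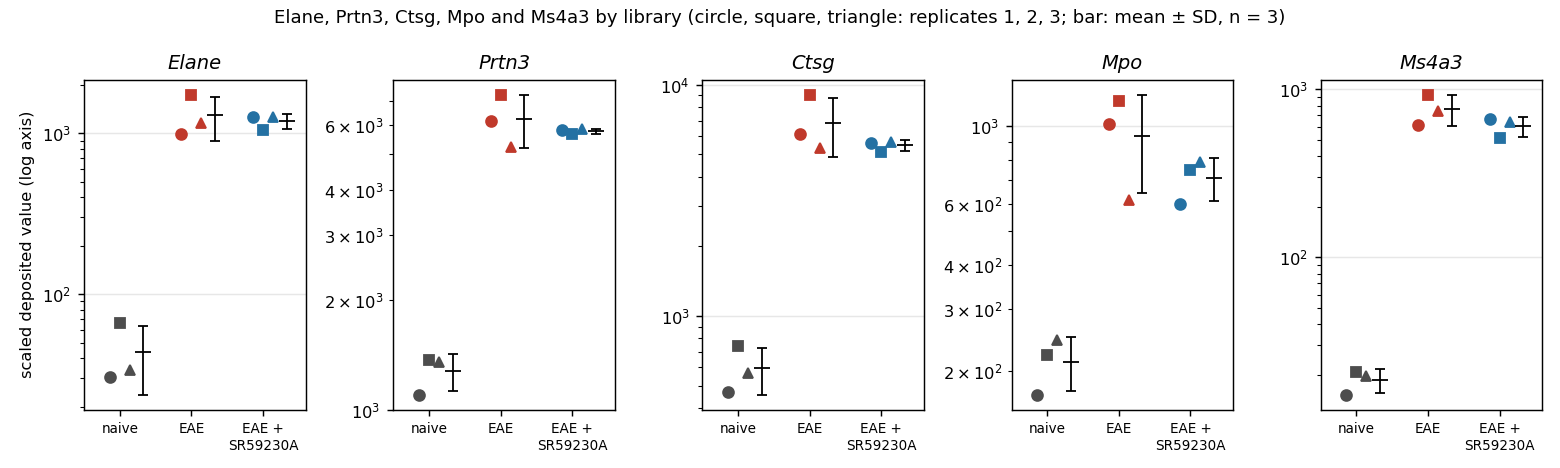
Scaled value (vertical log axis) of Elane, Prtn3, Ctsg, Mpo and Ms4a3 in each library by group, with circle, square and triangle for replicates 1, 2 and 3 and a bar for the mean ± SD (n = 3). The naive libraries lie below all immunized libraries for each gene, and the EAE and treated libraries overlap.

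Immunization was compared with the naive state first. All 5 genes rose in EAE (limma-trend, Benjamini-Hochberg adjusted over all tested genes, 2-sided), where 9.13% of the 13018 tested genes rose, 5.1% fell and 14.2% thus passed. In each of them the groups did not overlap, which held in the same direction for 21% of tested genes. Fold changes are on the scale of log2(value + 1), which understates those of genes at low values. Ms4a3 rose by a log2 fold change of 5.30 ± 0.15 (SE, 39.5-fold, adjusted p = 5.3e-09). Elane rose by 4.93 ± 0.25 (30.5-fold, adjusted p = 4.83e-07). They ranked 3 and 4 of all tested genes by log2 fold change. Ctsg followed at 3.53 ± 0.18 (11.5-fold, rank 14, adjusted p = 4.83e-07), Prtn3 at 2.30 ± 0.12 (4.91-fold, rank 54, adjusted p = 5.00e-07) and Mpo at 2.11 ± 0.22 (4.30-fold, rank 68, adjusted p = 0.000151). The median of the 5 log2 fold changes was 3.53, against -0.003 over all tested genes. For 1 gene, the exact permutation test of 3 libraries against 3 gave p = 0.1 for each member, the smallest value that design allows.

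EAE library 2 was the highest EAE library for all 5 genes, and without it all 5 still passed the test, with log2 fold changes of 4.70 for Elane, 2.18 for Prtn3, 3.31 for Ctsg, 1.91 for Mpo and 5.16 for Ms4a3. The share of all values held by olfactory, vomeronasal and trace-amine receptor genes, which blood progenitors are not known to use, also separated the groups, at 0.146% to 0.175% in naive, 0.103% to 0.117% in EAE and 0.0774% to 0.0960% in treated libraries. With that share as a further covariate the 5 genes still rose in EAE, with adjusted p = 0.0123 for Elane, 0.00575 for Prtn3, 0.0084 for Ctsg, 0.0338 for Mpo and 0.00029 for Ms4a3 (limma-trend).

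SR59230A treatment was then compared with immunization alone, which asks whether blocking the β3-adrenergic receptor altered the response. None of the 5 genes passed the test, in a comparison in which 0.00768% of tested genes (1 gene) did. The log2 fold change of treated against EAE was -0.10 for Elane (95% interval -0.64 to 0.45) and -0.10 for Prtn3 (-0.37 to 0.16). It was -0.29 for Ctsg (-0.69 to 0.10), -0.36 for Mpo (-0.84 to 0.12) and -0.34 for Ms4a3 (-0.67 to -0.01). The adjusted p was 0.998 for each (limma-trend), and Ms4a3 alone was under 0.05 before adjustment, at 0.0426, as were 504 genes (3.87%). The groups overlapped for all 5 genes, whereas 16.2% of tested genes had groups without overlap. The exact permutation p was 0.9 for Elane, 0.7 for Prtn3 and 0.3 for each of Ctsg, Mpo and Ms4a3. The median over the members was -0.29 and over all tested genes 0.01. Without EAE library 2 the estimate for Elane turned to 0.13 and that for Prtn3 to 0.01. These intervals do not show that treatment left the genes as they were: they leave room for a decrease of as much as 0.37 on the log2 scale in Prtn3 and 0.84 in Mpo.

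Treated mice were also compared with naive mice, which are the same naive libraries as before. All 5 genes rose again, where 10.2% of tested genes rose, 4.61% fell and 14.8% passed. None of their groups overlapped, against 26.4% of tested genes in that direction. The log2 fold change was 4.96 ± 0.15 for Ms4a3 (31.2-fold, adjusted p = 1.11e-08) and 4.84 ± 0.25 for Elane (28.6-fold, adjusted p = 8.32e-07), ranks 2 and 3. It was 3.24 ± 0.18 for Ctsg (9.42-fold), 2.19 ± 0.12 for Prtn3 (4.58-fold), each with adjusted p = 1.02e-06, and 1.75 ± 0.22 for Mpo (3.36-fold, adjusted p = 0.000538). The median of the 5 was 3.24, against 0.007 over all tested genes. With the receptor-gene share as a covariate only Ms4a3 remained past the threshold of this limma-trend test. The other log2 fold changes were then 3.44 for Elane (adjusted p = 0.169), 2.39 for Prtn3 (0.0759), 3.01 for Ctsg (0.144) and 2.94 for Mpo (0.190), all still positive. Their SE also grew, from 0.25 to 0.83 for Elane, 0.12 to 0.45 for Prtn3, 0.18 to 0.67 for Ctsg and 0.22 to 0.73 for Mpo. The share did not overlap between naive and treated libraries, so this fit separates share and group poorly. The part of that share in the result was not tested further.

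**Figure D2:**
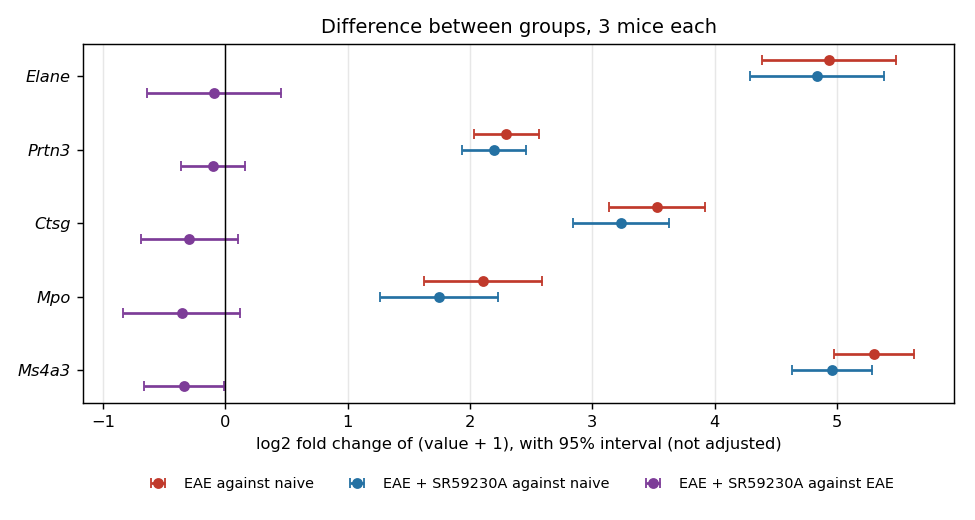
Log2 fold change of (value + 1) with its unadjusted 95% interval (horizontal axis) for the 5 genes (rows) in the 3 comparisons (colours). The intervals against naive lie wholly above 0, and those of treated against EAE hold 0 for 4 genes and end at -0.01 for Ms4a3.

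Within groups the genes tended to share their high and low libraries. Naive library 1 was the lowest of its group for 5 of 5 genes and naive library 2 the highest for 4 of 5. EAE library 2 was the highest for 5 of 5. Elane stood 0.47 above its EAE mean there on the log2 scale, Ctsg 0.45, Mpo 0.39, Ms4a3 0.30 and Prtn3 0.24. EAE library 3 was the lowest for 3 genes and stood 0.55 below the group mean for Mpo. Treated library 2 was the lowest for 4 genes, and Mpo, the exception, was lowest in treated library 1. The treated group had the smallest coefficient of variation of the 3 groups for all 5 genes. It was 10.1% for Elane, 1.68% for Prtn3, 5.19% for Ctsg, 14.1% for Mpo and 13.6% for Ms4a3. In EAE it was 30.4%, 16.3%, 28.9%, 31.0% and 20.7% for the same genes in that order. The treated group also had the smallest coefficient of variation for each of the 10 genes most like the members, described below, except Tm6sf1. The share over all genes was not counted. These differences in spread were not tested, and the deposited values lack 2 directions of variation within the groups.

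**Figure D3:**
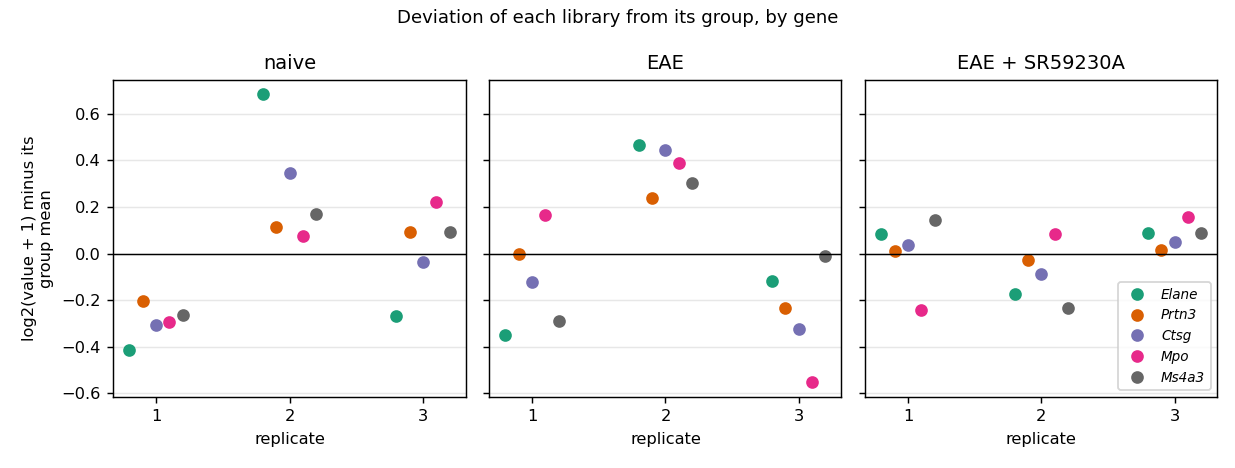
Deviation of log2(value + 1) from the group mean (vertical axis) for each of 3 replicates (horizontal axis), by gene (colour) and group (panel). All 5 genes lie above 0 in EAE library 2 and below 0 in naive library 1.

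The 5 genes did not rise by equal amounts. Only the change of a ratio between groups can be read here, since values were not set per length. The log2 ratio of Elane to Prtn3, genes next to each other on chromosome 10, was -5.13, -4.35 and -5.28 in naive, -2.64, -2.07 and -2.18 in EAE, and -2.21, -2.43 and -2.21 in treated libraries. Relative to naive mice the ratio was higher by 2.62 in EAE and by 2.63 after treatment. The log2 ratio of Mpo to Ms4a3 was 3.41, 3.35 and 3.57 in naive libraries and 0.72, 0.34 and -0.28 in EAE, a change of -3.18. In the comparison of EAE with naive, 8 of the 10 pairs of members had ratios whose groups did not overlap. Each of those pairs had exact permutation p = 0.1, the smallest value possible for 3 against 3, and 0.125 after Benjamini-Hochberg adjustment over the 10 pairs, so none could pass 0.05. The exceptions were Elane to Ms4a3 (change -0.37, exact p = 0.2) and Prtn3 to Mpo (0.19, exact p = 0.5). In treated against EAE, 2 of 10 pairs did not overlap, Elane to Ms4a3 (0.24) and Prtn3 to Ctsg (0.19), with exact permutation p = 0.1 and 0.5 after adjustment. Treated against naive it was 9 of 10 pairs, with an adjusted exact p of 0.111, and Elane to Ms4a3 (-0.13) was the exception.

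The other proteins of azurophil granules moved little beside the members. Of 17 tested genes of this list, 3 rose and 0 fell in EAE against naive, and the median log2 fold change over the list was 0.17. Prss57, the granule serine protease NSP4, rose by 1.30 ± 0.15 (adjusted p = 0.000313), from 115, 170 and 136 to 368, 337 and 317. The lysosomal hydrolases Gusb (0.58 ± 0.11) and Hexa (0.57 ± 0.11) rose as well. Ctsd, an aspartic protease, was at 0.35 ± 0.12 and did not pass (adjusted p = 0.0733). Against naive, 5 of 17 rose in treated mice, among them Prss57 by 1.26, Hexa by 0.57, Ctsd by 0.56 and Gusb by 0.44, and some of these calls depended on the fit. Without scaling, those of Hexa (adjusted p = 0.0666), Ctsd (0.0687) and Gusb (0.148) were lost, and without the trend those of Ctsd (0.0673) and Gusb (0.0813). The Gusb call was also lost with upper-quartile scaling (0.0634) and, by a margin too small to print, without treated library 3. The counts of higher genes in EAE and treated mice against naive both became 0 with the receptor-gene share as a covariate.

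Genes that mature, pack and sort granule proteases gave 2 that rose and 1 that fell of 15 tested in EAE against naive (median 0.19). Rab27a, a GTPase of granule release, rose by 0.88 ± 0.10 (adjusted p = 0.000299). Ctsc, the peptidase that activates the serine proteases, rose by 0.33 ± 0.10 (adjusted p = 0.0492), a call lost in 10 of 19 alternatives, among them without naive library 1 (adjusted p = 0.0778) or 3 (0.0822) and without EAE library 2 (0.0546) or 3 (0.0523). Igf2r, a mannose 6-phosphate receptor that carries hydrolases to lysosomes, fell by 0.54 on the log2 scale (SE 0.14, adjusted p = 0.0255), a call lost without the trend (0.0909). Srgn, the serglycin core protein that holds proteases in granules, was at 0.40 ± 0.14 (adjusted p = 0.0749) and did not pass. Treated mice had 2 genes of this list that rose against naive, Rab27a by 0.88 and Ctsc by 0.42. The Ctsc call there was lost without scaling (adjusted p = 0.155), with upper-quartile scaling (0.0558) and without the trend (0.0735). Beside them, Srgn was at 0.28 and M6pr, the other mannose 6-phosphate receptor, at 0.26 in treated against naive, and neither passed.

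Of 6 tested inhibitors of serine proteases, 2 fell in EAE against naive and none rose (median 0.40). Serpinb6b fell by 0.77 (SE 0.17, adjusted p = 0.0126) and Serpinb6a by 0.72 (SE 0.20, adjusted p = 0.0362). The Serpinb6a call was lost in 7 of 19 alternatives, among them without naive library 1 (adjusted p = 0.0834) or 2 (0.0560) and without EAE library 1 (0.0540) or 2 (0.0618). Serpinb1a, an inhibitor of elastase, proteinase 3 and cathepsin G, was at 0.24 ± 0.10 (adjusted p = 0.147) and Serpina3g at 0.63 ± 0.23 (0.0921), and neither passed. Against naive, Serpina3f rose in treated mice by 1.05 ± 0.25 and Serpina3g by 0.76 ± 0.23. The Serpina3f call was lost without naive library 2 (adjusted p = 0.0501) or treated library 3 (0.0509), and without the trend (0.0991). The Serpina3g call was lost without naive library 1 (adjusted p = 0.0836) or 2 (0.111) and without any one of the treated libraries (0.063, 0.0861 and 0.0979). It was also lost without scaling (0.0888), with upper-quartile scaling (0.0747) and without the trend (0.168). Serpinb1a (0.28) and Slpi (1.58 ± 0.96), an elastase inhibitor, did not pass there. Without EAE library 2, 1 of the 6 rose and 1 fell in EAE, and 2 rose and 2 fell in treated mice.

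Transcription factors known to act on granule genes gave 5 that rose and none that fell of 12 tested in EAE against naive (median 0.46). Cebpe, which drives the later granule programme, rose by 2.24 ± 0.60 (adjusted p = 0.0283) from 1.01, 5.69 and 2.82 to 27.1, 10.2 and 15.6. That call was lost without naive library 1 (adjusted p = 0.0683) or EAE library 1 (0.0614), and without the trend (0.0714). Cebpd rose by 1.71 ± 0.19 (adjusted p = 0.000258). Irf8, which favours monocytes over neutrophils, rose by 1.15 ± 0.16 (adjusted p = 0.000885). Cebpa, needed to form granulocyte-monocyte progenitors, rose by 0.98 ± 0.11 (adjusted p = 0.000258). The fifth, Spi1, which encodes PU.1 and was named after its value was seen, rose by 0.31 ± 0.09 (adjusted p = 0.0376). Against naive, 6 factors rose in treated mice, among them Irf8 by 1.64, Klf4 by 1.33, Cebpd by 1.32 and Cebpa by 0.81. The Klf4 call was lost without naive library 1 (adjusted p = 0.0616) or treated library 1 (0.0624), and without the trend (0.116). The factors with the highest values, Myb, Runx1, Cux1 and Cbfb, passed in none of the 3 comparisons. With the receptor-gene share as a covariate the counts against naive were 0 in both comparisons.

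Many other genes of granulocyte-monocyte progenitors rose with the members. The list was drawn up with earlier results of these data known, so its count is no independent support. Of 24 tested, 17 rose in EAE against naive and none fell, with a median of 1.42. Over all tested genes 9.13% rose in EAE and 10.2% in treated mice, each against naive. Clec5a, a lectin receptor of myeloid cells, rose by 4.68 ± 0.25 (adjusted p = 5.00e-07) from 5.07, 4.74 and 8.45 to 166, 152 and 205. Its naive values were under 10, so it passed the filter on low values through the immunized libraries alone. Ccr2, the chemokine receptor of monocytes, rose by 4.13 ± 0.14, Igsf6 by 4.07 ± 0.28 and Hp, haptoglobin, by 3.89 ± 0.16. The count in treated mice against naive was also 17, among them Clec5a by 4.14, Igsf6 by 3.84, Ccr2 by 3.82 and F13a1, a coagulation factor subunit, by 3.64. With the receptor-gene share as a covariate 11 rose in EAE and 6 in treated mice.

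**Figure D4:**
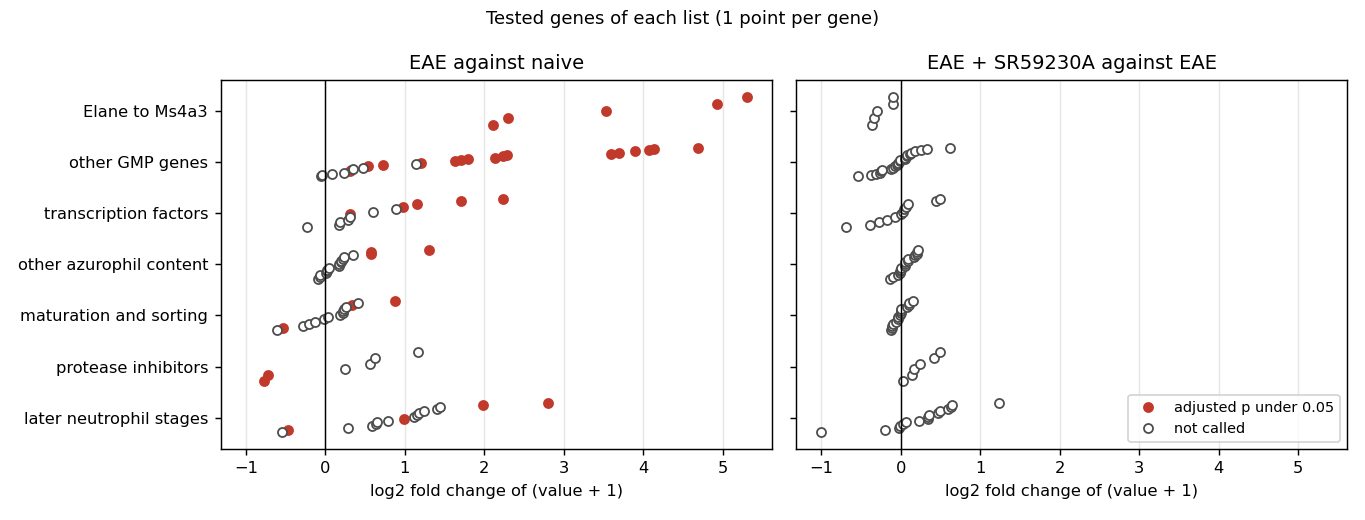
Log2 fold change of (value + 1) (horizontal axis) for each tested gene, filled where the adjusted p was under 0.05. Rows are the members, other progenitor genes, factors, other granule content, maturation and sorting, inhibitors and later neutrophil stages. The left panel is EAE against naive and the right panel treated against EAE, and treated against naive is not shown. The members and the other progenitor genes reach the highest values in EAE against naive, and no point is filled in treated against EAE.

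Closer relatives of the members were counted next. Of 7 tested haematopoietic serine proteases, 2 rose in EAE and the same number rose in treated mice against naive. These were Mcpt8, a protease of basophils, by 2.58 ± 0.28 in EAE and 2.43 in treated mice, and Prss57 with the values above. Of 3 tested relatives of Mpo none rose, and Epx, eosinophil peroxidase, fell by 1.80 (SE 0.53, adjusted p = 0.0438) and Ptgs1, a cyclooxygenase, by 0.45 (SE 0.13, adjusted p = 0.0426) in EAE. The Epx call was lost without naive library 1 (adjusted p = 0.0797) or 2 (0.0698), without scaling (0.0547), with a pseudocount of 10 (0.114) and without the trend (0.0602). The Ptgs1 call was lost without naive library 1 (adjusted p = 0.101) or 3 (0.0750), without EAE library 3 (0.0582), without scaling (0.0878) and without the trend (0.126). No relative of Mpo passed in treated mice against naive. Of 8 tested genes of the MS4A family and its relatives Tmem176a and Tmem176b, 5 rose in EAE, led by Ms4a6d (2.64 ± 0.44), Ms4a6c (1.84 ± 0.13), Ms4a4c (1.80 ± 0.21) and Ms4a2 (1.43 ± 0.34), and 6 rose in treated mice.  Ms4a6d was at low values, 2.03, 1.90 and 3.76 in naive and 26.2, 18.4 and 17.7 in EAE libraries. Reads shared between relatives could move values from one gene to another, and the sources used here do not give how such reads were counted. The longest identical stretch between transcripts (GENCODE M21) was 17 bases for Elane and Prtn3, 17 for Elane and Mcpt8, 26 for Mpo and Epx, 15 for Ctsg and Gzmb and 14 for Ms4a3 and Ms4a4c.

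Genes beside the members on the chromosomes were also counted. Over all tested genes, 14.2% passed in EAE and 14.8% in treated mice, each against naive. Of 24 tested neighbours that are not members, the 3 nearest on each side of each member in the RefSeq order, 4 rose and 1 fell in EAE against naive (median 0.16), 5 rose and 1 fell in treated mice against naive, and none passed in treated against EAE. Plppr3, next to Prtn3, rose by 0.69 ± 0.08 (adjusted p = 0.00039), while Med16 beyond Elane was at -0.18 (adjusted p = 0.195) and Ptbp1 at -0.01. Beside Ctsg on chromosome 14, Mcpt8 rose as given above and Gzmb, granzyme B, was at 0.79 ± 0.82 (adjusted p = 0.564). Supt4a (0.17) and Mks1 (0.24), on either side of Mpo on chromosome 11, did not pass, and Epx fell. Ms4a2 and Ms4a6d rose beside Ms4a3 on chromosome 19, and Oosp1 on its other side was at 0.77 and did not pass.

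Markers of later and other cell types were counted in the same libraries. Of 16 tested genes of specific and gelatinase granules and mature neutrophils, 3 rose and 1 fell in EAE against naive (median 1.05). The chemokine receptor Cxcr2 rose by 2.80 ± 0.35, Lcn2, lipocalin 2, by 1.98 ± 0.45 and the integrin Itgam by 0.99 ± 0.15, and Padi4 fell by 0.47 (SE 0.10). The Lcn2 call was lost without naive library 2 (adjusted p = 0.0553) and without the trend (0.112). The Padi4 call was also lost without the trend (0.0624). The summed value of 17 such genes was 5051, 3792 and 8244 in naive, 13842, 5342 and 18919 in EAE, and 9357, 16580.5 and 19348 in treated libraries. EAE library 2, the highest for all 5 members, had the lowest later-stage sum of its group, inside the naive range. Without that library 8 of these genes rose and 1 fell. Treated mice against naive had 5 that rose and 1 that fell, with Lcn2 at 2.33, S100a8 at 1.87, Cxcr2 at 1.79 and S100a9, partner of S100a8, at 1.68. The S100a8 call was lost without naive library 1 (adjusted p = 0.0995) or 2 (0.120) and without treated library 2 (0.0894) or 3 (0.106). The S100a9 call was lost without the same libraries (0.114, 0.140, 0.105 and 0.121). Without the trend the treated calls of Lcn2 (0.0749), S100a8 (0.168) and S100a9 (0.186) were lost as well. Upper-quartile scaling lost those of S100a8 (0.0509) and S100a9 (0.0619), and no scaling lost that of S100a9 (0.0567). Without EAE library 2, 9 rose and 1 fell in that comparison.

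**Figure D5:**
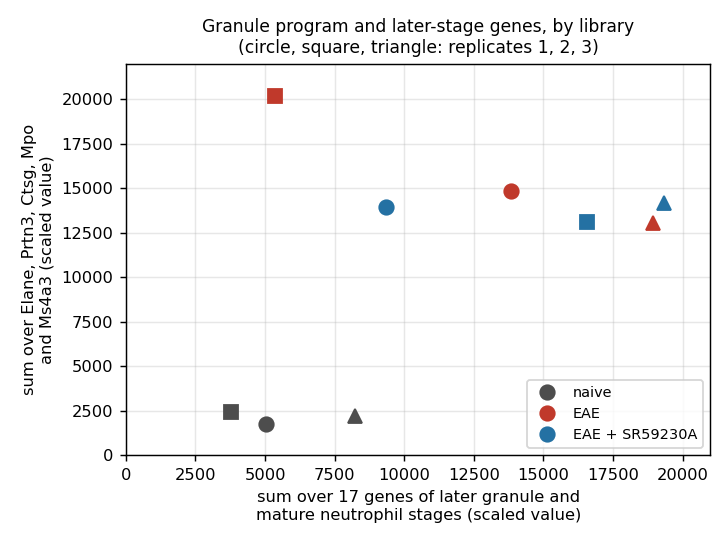
Sum of the 5 members (vertical axis) against the sum of 17 genes of later granule and mature neutrophil stages (horizontal axis), both as scaled values, 1 point per library. EAE library 2 combines the highest member sum, 20163, with a later-stage sum of 5342, and the 3 naive libraries lie at member sums of 1785 to 2417.

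Mature monocyte and macrophage markers gave 1 that rose of 8 tested in EAE against naive, Cd14 (3.16 ± 0.30), and 4 in treated mice: Cd14 (2.69), Cx3cr1 (1.48), Itgax (0.67) and Cd68 (0.54). The Itgax call was lost without naive library 1 (adjusted p = 0.0663) or 3 (0.0551) and without any one of the treated libraries (0.0796, 0.0579 and 0.0539). The Cd68 call was lost without naive library 1 (adjusted p = 0.0629) or 2 (0.0594) and without treated library 1 (0.0625) or 2 (0.0649). Without the trend the calls of Itgax (0.118) and Cd68 (0.121) were lost too, as they were without scaling and with upper-quartile scaling. Of 12 tested mast cell, basophil and eosinophil genes, 3 rose in EAE against naive, Mcpt8, Hdc (1.95 ± 0.26), the histamine-forming enzyme, and Ms4a2, while Ear6 fell by 2.69 (SE 0.61) and Epx fell. The same 3 rose in treated mice, Mcpt8 by 2.43, Ms4a2 by 2.16 and Hdc by 1.91. The Ear6 call in EAE was lost without the trend (adjusted p = 0.0852). Of 13 tested stem cell genes 8 fell in EAE and none rose, with Hlf at -1.48, Angpt1 at -1.45 and Robo4 at -1.06, and 7 fell in treated mice. Of 10 gate genes, 3 rose in EAE, among them Ly6a, which encodes Sca1 (0.46 ± 0.12), and Cd48 (0.61). The Ly6a call was lost without naive library 1 (adjusted p = 0.0619), without scaling (0.0758) and without the trend (0.112). The Cd48 call was lost without scaling (0.076) and without the trend (0.0889). Among those that fell were Kit (-0.43) and Procr (-0.46), and the Procr call was lost without the trend (adjusted p = 0.0573). In treated mice the gate genes Ly6a (0.68) and Ly6e (0.61) rose and Kit (-0.45) fell. Of 8 tested lineage genes Itgam and Klrb1c (1.46 ± 0.21) rose in EAE, and these and Ncr1 (3.16) rose in treated mice. Ncr1 was near the floor, at 1.01, 0 and 1.88 in naive and 15.3, 15.3 and 14.4 in treated libraries. The part of all these cell types in the members' rise was not tested.

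In treated against EAE, 0 of the 147 tested genes on any of these lists passed (limma-trend). An unadjusted p under 0.05 was held by 504 of all 13018 tested genes (3.87%) and by 14 of the 147. Of the lists nearest to the members these were Psap, a precursor of lysosomal activators, among granule content, Irf8 among the factors, and Clec5a and Cd33 among progenitor genes, chosen after their values were seen. The 2 highest log2 fold changes of all tested genes in this comparison were those of eosinophil genes, Ear6 at 3.26 ± 0.61 and Epx at 2.87 ± 0.53, each with adjusted p = 0.451 (limma-trend). Ear6 was at 29.4, 14.2 and 52.6 in naive, 8.13, 1.02 and 4.17 in EAE, and 51.9, 55.0 and 26.7 in treated libraries. Epx was at 9.12, 15.2 and 5.63 in naive, 1.81, 2.05 and 2.08 in EAE, and 30.5, 21.4 and 13.3 in treated libraries. For both genes all EAE libraries lay below all others, and the naive and treated libraries overlapped. With the receptor-gene share as a covariate, the calls against naive that remained outside the members and the other progenitor genes were few. In EAE, Rab27a, Ms4a6c and Itgam, which is both a later-stage and a lineage gene, rose, and the stem cell genes Hlf and Angpt1 fell. In treated mice Ms4a6c rose.

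The 10 genes most like the members were found by Pearson correlation, over the 9 libraries, with the mean of the members' scaled log2 values. They were Ctsz (r = 0.997), Gmnn, Gpc3 and Iars (0.996 each), Mt1, Sema6b, Emilin2 and Rrp1b (0.995 each), Pa2g4 (0.994) and Tm6sf1 (0.993). The members among themselves had r of 0.949 to 0.998. The libraries share the step between naive and immunized groups, so these r are given as a description. Ctsz encodes the lysosomal protease cathepsin Z, Gpc3 a cell-surface proteoglycan, Mt1 a metallothionein and Gmnn a regulator of DNA replication. Gpc3 was at 31.4, 42.6 and 34.7 in naive, 200.5, 251 and 219 in EAE, and 190, 177 and 199.9 in treated libraries. Like the members it did not overlap between naive and immunized mice. Likeness in pattern did not mean likeness in size: the log2 fold change in EAE against naive was 2.61 ± 0.17 for Gpc3, 2.39 ± 0.12 for Emilin2, 2.38 ± 0.18 for Mt1 and 0.995 ± 0.10 for Ctsz, down to 0.40 ± 0.08 for Tm6sf1.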

How the data were processed

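RNA was measured in LSK cells of 9 mice, 3 in each group, grouped by the labels. Per the labels' protocols the RNeasy micro kit was used for RNA. The authors deposited 1 table of whole numbers, used here as a score and not as counts, because the values of 4577 genes with means of 500 or more do not vary in 2 directions across the libraries (6.7e-05% and 5.94e-05% of the variance, against 2.44% to 55.3% for the others). Depth is therefore unknown, and the spread between replicates is understated if those directions were removed. DESeq2 is named in the submitters' processing notes, without a version. Aligner, counter, build and annotation: not given in the sources used here. Values were divided by median-of-ratios factors, and genes with a deposited value of at least 10 in 3 libraries were tested on log2(value + 1) with limma-trend (limma 3.58.1, R 4.3.3). The model held 3 group coefficients and the 2 missing directions (4 residual degrees of freedom, prior 7.52). P-values were 2-sided with Benjamini-Hochberg adjustment over 13018 genes and a threshold of 0.05. They weigh group differences against a spread between these mice that was moderated by a trend over all tested genes. The procedure was also run on simulated data in which genes varied independently and lacked the same 2 directions. That run was built on the assumptions of the model, so it cannot show how the test behaves on values adjusted in an unknown way.

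The members, the gene lists and the tests were chosen with earlier results of these data known. Named from each list were up to 4 called genes with the largest absolute log2 fold change per comparison. For the lists of factors, granule content, maturation and inhibitors, genes of the highest mean filled the 4 places. Members and neighbours were matched by symbol to RefSeq (GRCm38.p6), and promoters of 5 of 5 members were found. The alternatives were another scaling, pseudocount and filter, a fit without the 2 directions, one without the trend, one with the receptor-gene share, fits on the groups compared alone, and each replicate left out. The values of 1 gene that the rule would name are not reported here.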

Additional observations from a re-analysis of the deposited data

How the results depend on the processing

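Of 19 alternatives, all 5 members passed in EAE against naive in every one, none passed in treated against EAE in any, and in treated against naive all 5 passed in 18. With the receptor-gene share as a covariate 1 passed there, and Elane was at 3.44, Prtn3 at 2.39, Ctsg at 3.01 and Mpo at 2.94. Treated against EAE, that covariate turned Mpo to 0.033. Leaving out 1 replicate moved Elane from -0.28 to 0.13 and Prtn3 from -0.23 to 0.012 in this comparison. The pairs of members without overlap numbered 2 to 4 there when 1 replicate was left out. The Elane to Ms4a3 ratio in treated against naive turned to 0.12 with a pseudocount of 10 and ranged from -0.31 to 0.13 with 1 replicate left out. Over all genes, EAE against naive gave 1059 calls without scaling, 3485 with group coefficients alone, 778 without the trend and 96 with the receptor-gene covariate, against 1853. Upper-quartile scaling changed the split of 1189 higher and 664 lower to 807 and 910. Treated against naive gave 1073 without scaling, 3920 with group coefficients alone, 864 without the trend, 25 with the covariate, 4442 with only those 2 groups fitted and 1234 to 3327 with 1 replicate left out, against 1932. The lowest was without naive replicate 1 and the highest without EAE replicate 3. Its split of 1332 higher and 600 lower became 489 and 584 without scaling and 835 and 954 with the upper quartile, where the median of all genes was -0.11 and -0.09. Treated against EAE gave 0 without the trend, against 1. Of the results of other named genes against naive, 1816 kept direction and call, 180 lost the call (77 of these with the covariate, 26 without the trend, 19 without scaling and 9 with the upper quartile), 12 gained it and 10 turned. All 10 turned with the covariate: in EAE, Ptgs1 to 0.0038 and Ly6a to -0.16, and in treated mice Ctsc to -0.037, Srgn to -0.19, M6pr to -0.35, Slpi to -8.24, Klf4 to -2.27, Cx3cr1 to -0.61, Itgax to -0.40 and Ly6a to -0.24. The SE of Elane in treated against naive was 0.83 with the covariate and 0.25 without it. The cause of these changes was not tested. No paired analysis was possible because the labels give the mice of different groups no shared numbers. Depth is unknown, so counting precision could not be given, and 3 mice per group limit every comparison.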
